A study of Homo sapiens with 6 samples.

Results

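The genes of glycolysis, the pentose phosphate pathway and glycogen breakdown were followed through 2 ribosome immunoprecipitations (IPs) from one human cell line. They were taken as a list of 33 gene symbols, of which 32 were in the deposited table of 16834 genes, and PGAM2, the muscle phosphoglycerate mutase, was not analysed here. The list held 18 enzymes of the glycolytic route from hexokinase to lactate dehydrogenase and 3 regulatory 6-phosphofructo-2-kinases (PFKFB2, PFKFB3 and PFKFB4). It also held 6 pentose phosphate enzymes and 5 enzymes of glycogen breakdown and sugar phosphate interconversion. The muscle isoforms ENO3, PFKM and PYGM stood in it beside their common paralogs. HEK-293T, an epithelial-like line of human kidney origin, had been given a single Flp-In copy of ccTaggedRP, a construct behind a CAG promoter that encodes the ribosomal protein RPL10a both with a Flag tag and a Cdt1 degron and with an HA tag and a Geminin degron. The Cdt1 degron removes the Flag protein from late S through M phase and the Geminin degron removes the HA protein in late G1 and early S phase, so the study asked which mRNAs ride on ribosomes of each cell cycle stage in cells that were not synchronized, grown with Hygromycin B to keep the construct. Both groups came from that same stable line and differed, by their labels, only in the epitope that was pulled down: 3 Flag-IPs and 3 HA-IPs were sequenced, and neither input RNA nor an IP from cells without the tags was analysed here.

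Glycolysis splits glucose into pyruvate and pays back more ATP than it spends, and lactate dehydrogenase turns the pyruvate into lactate while it renews the NAD that the pathway needs. The pentose phosphate pathway branches off at glucose-6-phosphate: its oxidative arm makes NADPH, and its non-oxidative arm, run by transketolase and transaldolase, exchanges sugar phosphates with glycolysis and supplies ribose for nucleotides. Most steps are served by paralogous isozymes, and enolase, phosphofructokinase, phosphoglycerate mutase and glycogen phosphorylase have versions named for muscle beside the common ones. Such a name does not mean that a version is confined to muscle. In the line used here PFKM made up 21.1% of the phosphofructokinase family per transcript length in the Flag-IPs and 21.7% in the HA-IPs.

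Depth ran from 23174532 to 44134833 reads per library on the 16834 genes of the table, and the 32 genes together held 1.59% ± 0.047 (SD, n = 3) of all normalized counts in the Flag-IPs and 1.65% ± 0.023 (SD, n = 3) in the HA-IPs. All 8 markers of HEK293 cells and kidney epithelium were in the table, with KRT8, KRT18 and VIM well measured in every library, EPCAM and CDH1 called higher in the HA-IPs and PAX2 in the Flag-IPs. Markers of another tissue were present as well. Of 26 heart muscle genes, 20 were in the table and all 20 were called higher in the Flag-IPs, beside 7.10% of all genes. None was at 0 in all 3 HA-IPs, while CSRP3 was at 0 in HA-IP replicates 1 and 2. The authors left out genes with few reads, so a marker almost absent from the HA-IPs could enter only through the Flag-IPs. For such a marker the direction was set by that filter. The summed level of the 20 heart genes ran from 70982 to 152834 normalized counts in the Flag-IPs and from 1832 to 14644 in the HA-IPs. Flag-IP replicate 1 was the highest of all and HA-IP replicate 3 the highest of the HA-IPs. Of 8 fibroblast genes 7 were in the table, of which 5 were higher in the Flag-IPs and FN1 was higher in the HA-IPs, whereas of 11 fast skeletal muscle genes only 2 were in the table and neither passed the test. The labels name no heart tissue or fibroblasts, and the part of these genes' RNA in the results below was not tested.

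Of the 32 genes, 9 were higher in the HA-IPs (HK1, GPI, PFKP, PGK1, ENO1, PGD, TKT, PGM2 and PYGL) and 3 were higher in the Flag-IPs (TPI1, ENO3 and PYGM). The 9 HA-side differences were small, between 10.7% and 23.6%, whereas ENO3 and PYGM were several times higher in the Flag-IPs. A call here means that limma gave an adjusted p no higher than 0.05. Limma fitted log2(normalized counts + 1) of all 16834 genes, and a positive log2 fold change means higher in the HA-IPs. The 9 genes are 28.1% of the list, beside 5.79% of all genes called higher in the HA-IPs, and the 3 genes are 9.38%, beside 7.10% of all genes called higher in the Flag-IPs. Most of these mRNAs are abundant, and among the 5959 genes that averaged 1000 normalized counts or more the shares called were 14.4% and 7.42%, beside 9 and 1 of the 25 listed genes at that level. The median log2 fold change was 0.06 over the 32 genes and -0.005 over all genes, or 0.10 over the 25 abundant ones beside 0.05 over all abundant genes. Groups without overlap were found for 13 genes with the HA-IPs above and for 5 with the Flag-IPs above, beside 16.1% of all genes in each direction.

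Most HA-side calls depended on which libraries were kept. The number of listed genes called higher in the HA-IPs was 7 without Flag-IP replicate 1, 1 without Flag-IP replicate 2, 11 without Flag-IP replicate 3, 2 without HA-IP replicate 1, 1 without HA-IP replicate 2 and 2 without HA-IP replicate 3. Only PGM2 among the 9, and ENO3 and PYGM among the Flag-side calls, passed the threshold in all 6 of these fits. With limma fitted with one prior variance for all genes in place of a trend, 0 listed genes passed on the HA side (12 had an unadjusted p under 0.05), edgeR's quasi-likelihood test called 7 and DESeq2 called 10. The split between directions also moved with the scaling: it was 9 and 3 listed genes (975 and 1196 of all genes) as reported, 5 and 4 (471 and 1576) with each library scaled to the same total, and 3 and 4 (704 and 1004) under quantile normalization. In bulk IPs of this kind a lower number of cells of one type and less RNA per cell cannot be told apart. The labels number the replicates but do not say that they were separate cultures, so the p-values measure the spread between these samples, which may be technical.

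**Figure D1:**
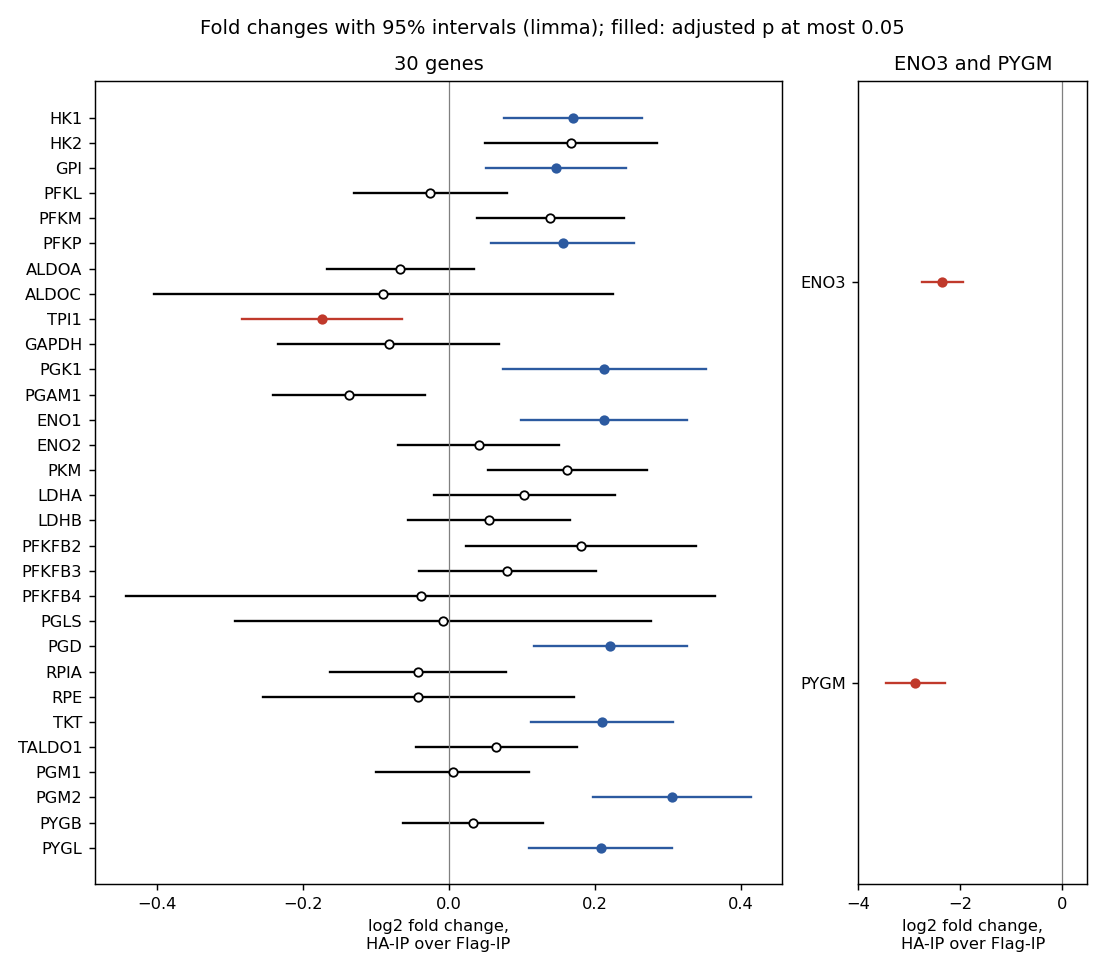
log2 fold change of each gene (HA-IP over Flag-IP, limma) with its 95% interval, 30 genes on the left and ENO3 and PYGM on a wider axis on the right. Filled blue points were called higher in the HA-IPs, filled red points higher in the Flag-IPs and open points were not called. The blue points sit between 0.15 and 0.31 while ENO3 and PYGM sit at -2.35 and -2.88.

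Per transcript length the levels of these mRNAs differed widely. Counted per kilobase of canonical transcript and per 1000000 normalized counts of the library, ENO1 was the highest at 1920 ± 35 (SD, n = 3) in the Flag-IPs, followed by pyruvate kinase PKM at 1270 ± 29, GAPDH at 1070 ± 120, LDHB at 774 ± 26 and aldolase ALDOA at 580 ± 25. These 5 abundant enzymes all act from the aldolase step onwards. The pentose phosphate enzymes lay well below, led by PGD at 123 ± 3.8 and TKT at 107 ± 1.6 on the same scale. At the bottom were PYGM at 2.41 ± 0.70 and PFKFB4 at 1.40 ± 0.34.

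The largest differences belonged to the muscle isoforms ENO3 and PYGM. ENO3 is the muscle beta-enolase, one of 3 enolases that turn 2-phosphoglycerate into phosphoenolpyruvate, and its gene lies on the plus strand of chromosome 17 from 4948092 to 4957131 (GRCh38). PYGM, the muscle glycogen phosphorylase, releases glucose-1-phosphate from glycogen and lies on the minus strand of chromosome 11 from 64746389 to 64759974. A read from one paralog could in principle be counted for another. The stretch of 100 coding bases in which each muscle isoform is most like any single paralog is therefore shown here from the GENCODE 44 transcripts. Capitals mark positions at which the 3 paralogs are not all the same base. The enolase stretch, coding bases 1087 to 1186, runs across exons 10 and 11 of 12 in each gene, and in ENO3 it covers chr17:4956592-4956681 and chr17:4956831-4956840.
ENO3: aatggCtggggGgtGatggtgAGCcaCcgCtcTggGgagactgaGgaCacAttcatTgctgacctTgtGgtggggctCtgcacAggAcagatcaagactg
ENO1: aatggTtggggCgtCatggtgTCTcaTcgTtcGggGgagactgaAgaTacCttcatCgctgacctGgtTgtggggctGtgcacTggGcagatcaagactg
ENO2: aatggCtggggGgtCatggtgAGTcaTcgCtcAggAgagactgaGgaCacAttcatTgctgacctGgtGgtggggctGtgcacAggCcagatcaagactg
The stretch of the phosphorylases, coding bases 856 to 955, lies in exon 8 of 20 in each gene, at chr11:64754737-64754836 in PYGM.
PYGM: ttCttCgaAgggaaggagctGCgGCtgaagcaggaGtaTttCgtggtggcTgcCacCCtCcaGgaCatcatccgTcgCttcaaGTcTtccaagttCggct
PYGL: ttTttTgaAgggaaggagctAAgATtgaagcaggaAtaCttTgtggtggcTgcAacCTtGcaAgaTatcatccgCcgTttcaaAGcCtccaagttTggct
PYGB: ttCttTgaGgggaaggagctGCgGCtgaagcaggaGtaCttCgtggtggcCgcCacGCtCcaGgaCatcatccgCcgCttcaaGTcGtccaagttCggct
Across the 3 paralogs 19 of the 100 enolase positions and 23 of the 100 phosphorylase positions varied. ENO3 differed from its closest paralog here, ENO2, at 8 positions and from ENO1 at 18. PYGM differed from its closest, PYGB, at 7 positions and from PYGL at 20. Over the whole aligned coding sequence ENO3 was 76.1% identical to ENO1 and 77.9% to ENO2, and PYGM was 73.9% identical to PYGL and 78.5% to PYGB. No run of 100 bases in the canonical transcript of any listed gene was shared with another listed gene.

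ENO3 stood at 1473, 1368 and 1049 normalized counts in replicates 1, 2 and 3 of the Flag-IPs and at 207, 216 and 354 in those of the HA-IPs, from 218 to 1286 reads per library. The groups did not overlap, and even HA-IP replicate 3, the highest of the HA-IPs, lay far below the lowest Flag-IP. ENO3 averaged 1296 ± 221 (SD, n = 3) normalized counts in the Flag-IPs and 259 ± 82.3 in the HA-IPs, a log2 fold change of -2.35 (SE 0.18, adjusted p = 9.2e-05, limma), or 5.0 times higher in the Flag-IPs. Leaving out any one library gave log2 fold changes from -2.59 to -2.21. An overlap of 111 bases with PFN1 on the opposite strand lies in its exons, and whether reads were counted by strand is not given in the sources used here.

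PYGM had 269, 206 and 152 normalized counts in the Flag-IPs against 33.2, 18.8 and 30.9 in the HA-IPs, where it rested on 47, 19 and 28 reads. All 3 Flag-IPs were above all 3 HA-IPs. The means were 209 ± 58.4 (SD, n = 3) and 27.6 ± 7.71, a log2 fold change of -2.88 (SE 0.26, adjusted p = 0.00014, limma), or 7.57 times higher in the Flag-IPs. Without one library at a time its log2 fold change ran from -3.09 to -2.63.

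PFKM, the muscle phosphofructokinase, did not share this direction. It had 6393, 6372 and 6741 normalized counts in the Flag-IPs against 7318, 7026 and 7131 in the HA-IPs, so that every HA-IP was above every Flag-IP. The log2 fold change was 0.14 (SE 0.046, adjusted p = 0.072, limma) and missed the threshold. Its level per length, 69.4 ± 1.2 in the Flag-IPs on the scale used above, stood beside 29.5 ± 5.4 for ENO3 and 2.41 ± 0.70 for PYGM.

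The heart muscle genes, like ENO3 and PYGM, were higher in the Flag-IPs. Flag-IP replicate 1 had the highest heart list sum and also the highest ENO3 and PYGM, and Flag-IP replicate 3 had the lowest of the Flag-IPs for all 3 measures. That order was not particular to them. TPI1, ALDOA and PGAM1, the other listed genes with every Flag-IP above every HA-IP, also fell from Flag-IP replicate 1 to replicate 3. Their log2 fold changes were far smaller, at -0.17, -0.07 and -0.14. As a percent of Flag-IP replicate 1, the heart list sum was 1.84, 1.20 and 9.58 in HA-IP replicates 1, 2 and 3, ENO3 was 14.1, 14.7 and 24.0, and PYGM was 12.3, 7.0 and 11.5. So the HA-IP with the most heart muscle RNA, replicate 3, had the most ENO3 of the HA-IPs, while its PYGM lay below that of HA-IP replicate 1, and in each HA-IP both genes kept a larger percent of their Flag-IP replicate 1 level than the heart list sum did. Single heart genes varied around this, with log2 fold changes from -5.62 to -0.87, and in HA-IP replicate 3 MB was at 29.7 percent, above ENO3 and PYGM, and TNNT2 at 15.9 percent, above PYGM. The sum of the 2 fast skeletal muscle genes was 134 to 194 in the Flag-IPs and 146 to 195 in the HA-IPs. How much of the ENO3 and PYGM difference comes with the heart muscle RNA was not tested.

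**Figure D2:**
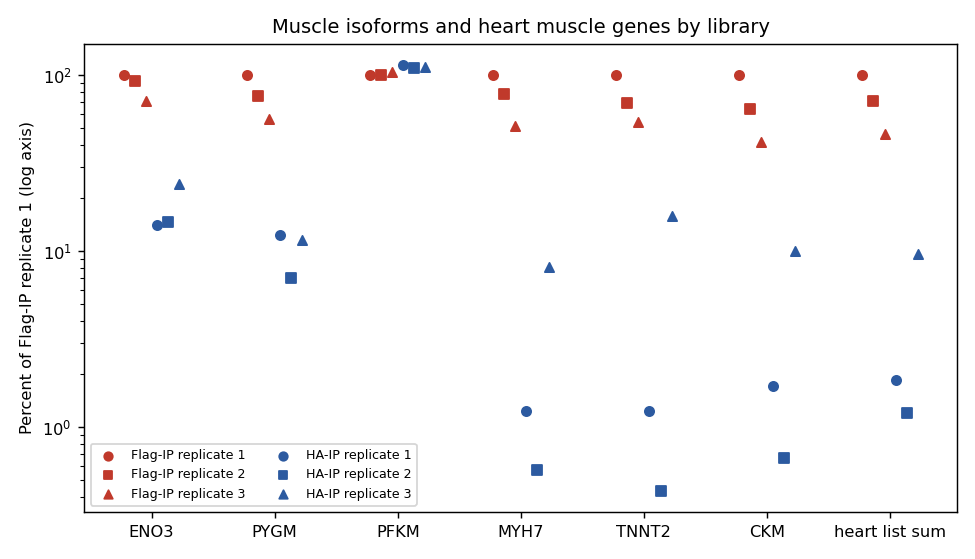
Level of ENO3, PYGM and PFKM and of the heart muscle genes MYH7, TNNT2 and CKM and the summed heart list, each as a percent of Flag-IP replicate 1 on a log axis, with one point per library. ENO3 and PYGM lie between 7.0 and 24.0 percent in the HA-IPs, the heart list sum between 1.20 and 9.58 percent, and PFKM above 100 percent.

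The first steps of glycolysis, which trap and rearrange glucose, held 3 HA-side calls. HK1, a hexokinase that can sit on mitochondria, had 8905, 8946 and 9267 normalized counts in the Flag-IPs against 10117, 10217 and 10177 in the HA-IPs. The groups were apart, with a log2 fold change of 0.17 (SE 0.043, adjusted p = 0.026, limma). It passed the threshold in 2 of 6 fits with a library left out, with an adjusted p of 0.087 to 0.12 without Flag-IP replicate 2 or any HA-IP. HK2, the inducible hexokinase, had a log2 fold change of 0.17 (SE 0.054) with an adjusted p of 0.065, and its groups did not overlap either.

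GPI, which turns glucose-6-phosphate into fructose-6-phosphate, had 28574, 28733 and 28532 normalized counts in the Flag-IPs against 31276, 32097 and 31655 in the HA-IPs. Its 6 values fell into 2 tight groups, with a log2 fold change of 0.15 (SE 0.044) and an adjusted p of 0.050 by limma, at the edge of the threshold. GPI was called only in the fit without Flag-IP replicate 3, and the adjusted p without any other library was 0.072 to 0.20.

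Phosphofructokinase commits the sugar to glycolysis and is a tetramer built from 3 kinds of subunit. PFKP, the platelet type and the most abundant of them here, had 12489, 12365 and 12536 normalized counts in the Flag-IPs against 14301, 13964 and 13401 in the HA-IPs. No values overlapped, and the log2 fold change was 0.16 (SE 0.045, adjusted p = 0.043, limma), lost with an adjusted p of 0.053 to 0.17 without any library other than Flag-IP replicate 3. PFKL, the liver type, lay at 8727, 9187 and 9277 in the Flag-IPs against 9086, 9050 and 8572 in the HA-IPs, with the groups overlapping and a log2 fold change of -0.03 (SE 0.048, adjusted p = 0.78). None of the 3 regulators of this step was called: PFKFB3, the most abundant of them, had a log2 fold change of 0.08 (SE 0.055, adjusted p = 0.40, limma), PFKFB2 0.18 (SE 0.072) and PFKFB4 -0.04 (SE 0.18), the last from 83 to 222 reads per library.

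The middle enzymes, from the split of fructose bisphosphate to the first oxidation, all had negative log2 fold changes, but only TPI1 was called. TPI1, triosephosphate isomerase, interconverts the triose phosphates, and it had 16458, 15648 and 15089 normalized counts in the Flag-IPs against 13554, 13763 and 14509 in the HA-IPs. Every Flag-IP was above every HA-IP, with a log2 fold change of -0.17 (SE 0.050, adjusted p = 0.043, limma). The call held only without Flag-IP replicate 3, with an adjusted p of 0.064 to 0.17 without any of the others, and once each library had been rid of its trends with transcript length and GC content the log2 fold change was -0.06 (adjusted p = 0.37). ALDOA, the main aldolase, had 29612, 29015 and 27889 normalized counts in the Flag-IPs against 27671, 27365 and 27541 in the HA-IPs, groups that did not overlap but differed by a log2 fold change of only -0.07 (SE 0.046, adjusted p = 0.39). GAPDH, which couples the oxidation to phosphate uptake, spread from 38199 to 46419 in the Flag-IPs and from 37715 to 40623 in the HA-IPs, and its log2 fold change of -0.08 (SE 0.069, adjusted p = 0.49) was within that spread. The log2 fold changes of ALDOA and GAPDH turned to 0.02 and 0.05 after the GC and length trends were removed.

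The lower route, which yields ATP, held the calls for PGK1 and ENO1. PGK1, the first ATP-forming enzyme, had 23502, 21311 and 21122 normalized counts in the Flag-IPs against 27429, 23618 and 25433 in the HA-IPs. The groups came close, with Flag-IP replicate 1 just below HA-IP replicate 2, and the log2 fold change was 0.21 (SE 0.064, adjusted p = 0.049, limma). Leaving out any library but Flag-IP replicate 1 gave an adjusted p of 0.056 to 0.21. PGAM1, the common phosphoglycerate mutase, had 15220, 15029 and 14382 normalized counts in the Flag-IPs against 14000, 13517 and 13067 in the HA-IPs, with a log2 fold change of -0.14 (SE 0.048, adjusted p = 0.083) and 46.21% of its 100-base windows shared with other genes, among them PGAM4.

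ENO1, the common enolase and the most abundant mRNA of the list, had 103633, 103816 and 103150 normalized counts in the Flag-IPs against 118484, 117475 and 124089 in the HA-IPs. The 3 Flag-IPs were close together and all lay below the HA-IPs, with a log2 fold change of 0.21 (SE 0.052, adjusted p = 0.022, limma), opposite in sign to that of ENO3. Without Flag-IP replicate 2 or any one HA-IP the adjusted p was 0.085 to 0.11, and under quantile normalization, which gives the top-ranked gene the same value in each library, the difference was 0. ENO2, the neuronal enolase, overlapped between the groups with 0.04 (SE 0.050). PKM, pyruvate kinase, had 89206, 89522 and 88127 normalized counts in the Flag-IPs against 101359, 97547 and 99673 in the HA-IPs. These groups were also apart, but the log2 fold change of 0.16 (SE 0.050) had an adjusted p of 0.055 by limma, beside 0.039 by edgeR and 0.0068 by DESeq2, and it turned to -0.03 under quantile normalization. LDHB and LDHA, the subunits of lactate dehydrogenase, differed by 0.06 (SE 0.051) and 0.10 (SE 0.057) and were not called.

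**Figure D3:**
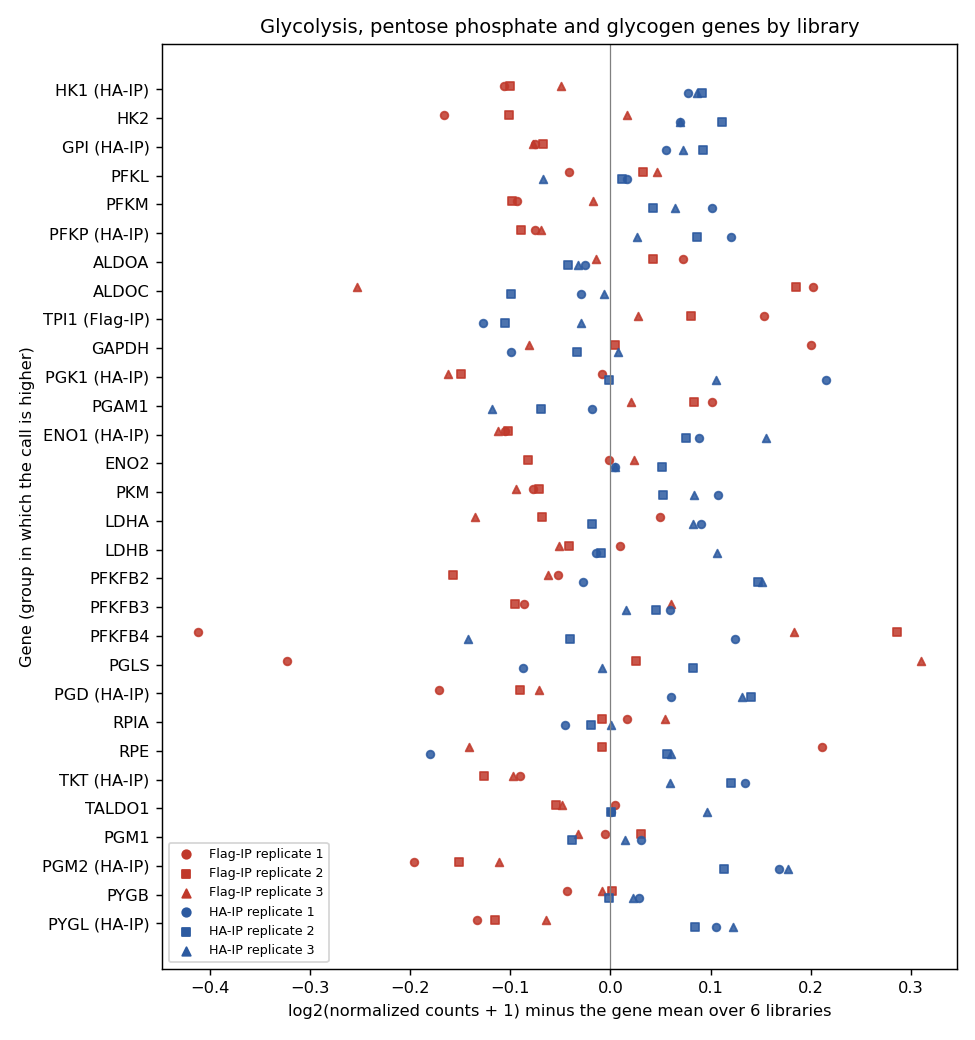
log2(normalized counts + 1) of 30 genes in each library, less the gene's mean over the 6 libraries, with ENO3 and PYGM left out because their range is far wider. Red symbols are Flag-IPs, blue symbols are HA-IPs, the shape gives the replicate, and the group in which a gene was called higher stands after its name. PGM2, ENO1, TKT and PYGL show the widest gaps between the groups, while ALDOC, PFKFB4 and PGLS show the widest scatter among the Flag-IPs.

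In the pentose phosphate pathway PGD and TKT were higher in the HA-IPs and the other 4 enzymes were not called. PGD, 6-phosphogluconate dehydrogenase, makes NADPH in the oxidative arm, and it had 8089, 8557 and 8671 normalized counts in the Flag-IPs against 9497, 10036 and 9975 in the HA-IPs. The groups were well apart, with a log2 fold change of 0.22 (SE 0.048, adjusted p = 0.013, limma). TKT, transketolase, moves 2-carbon units in the non-oxidative arm, and it had 9834, 9590 and 9787 normalized counts in the Flag-IPs against 11494, 11383 and 10909 in the HA-IPs. Here too there was no overlap, with a log2 fold change of 0.21 (SE 0.045, adjusted p = 0.012). Both were called in 3 of 6 fits with a library left out: PGD had an adjusted p of 0.057 to 0.073 without Flag-IP replicate 2, HA-IP replicate 2 or HA-IP replicate 3, and TKT had 0.066 to 0.080 without Flag-IP replicate 2, HA-IP replicate 1 or HA-IP replicate 2.

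Transaldolase, TALDO1, which works beside TKT, had 3183, 3056 and 3069 normalized counts in the Flag-IPs against 3173, 3173 and 3393 in the HA-IPs, so that Flag-IP replicate 1 lay above the lower HA-IPs. Its log2 fold change was 0.07 (SE 0.050, adjusted p = 0.45, limma), and 0.20 (adjusted p = 0.0089) once the GC and length trends were removed. The isomerase RPIA and the epimerase RPE, which shuffle the 5-carbon sugars, each had -0.04 (SE 0.055 and 0.097), and PGLS, which opens the lactone before PGD, had -0.01 (SE 0.13). All 3 overlapped between the groups.

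Among the 5 genes listed with glycogen breakdown, PGM2 and PYGL were higher in the HA-IPs. PGM2 belongs to the phosphoglucomutase family and acts mainly on ribose and deoxyribose phosphates. It had 2562, 2643 and 2717 normalized counts in the Flag-IPs against 3299, 3175 and 3319 in the HA-IPs. The lowest HA-IP was well above the highest Flag-IP, and the log2 fold change of 0.31 (SE 0.049, adjusted p = 0.0033, limma) was 23.6% on the linear scale. Leaving out each library gave 0.28 to 0.33, with adjusted p-values from 0.0016 to 0.028. PGM1, which interconverts glucose-1-phosphate and glucose-6-phosphate, had 3397, 3481 and 3334 normalized counts in the Flag-IPs against 3482, 3320 and 3444 in the HA-IPs, with no visible shift and a log2 fold change of 0.005 (SE 0.048, adjusted p = 0.96).

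PYGL, the liver-type glycogen phosphorylase, had 5940, 6015 and 6229 normalized counts in the Flag-IPs against 7007, 6905 and 7089 in the HA-IPs. No library of one group reached into the other, and the log2 fold change was 0.21 (SE 0.045, adjusted p = 0.012, limma), opposite in sign to that of PYGM. Its adjusted p was 0.052 to 0.075 without Flag-IP replicate 2 or any one HA-IP. PYGB, the brain type, overlapped between the groups, with a log2 fold change of 0.03 (SE 0.044, adjusted p = 0.69).

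The make-up of each isozyme family was computed as the share of each paralog in the family's normalized counts per kilobase, a ratio within a library that does not depend on how libraries were scaled. In an exact two-sided permutation test 3 against 3 libraries cannot go below p = 0.1, so no share can pass 0.05. Enolase was almost all ENO1, at 96.5% ± 0.21 (SD, n = 3) in the Flag-IPs and 97.9% ± 0.044 in the HA-IPs, while ENO3 went from 1.48% ± 0.25 to 0.258% ± 0.073. The phosphorylases were mainly PYGL, at 61.2% ± 0.76 and 65.2% ± 0.19, with PYGB at 36.7% ± 0.42 and 34.6% ± 0.18 and PYGM at 2.07% ± 0.60 and 0.251% ± 0.068. For each of these shares, and for that of ENO2, the groups did not overlap (exact permutation p = 0.1, the smallest possible).

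The phosphoglucomutase family, whose members PGM1 and PGM2 have different main substrates, showed the widest shift in percentage points. PGM2 made up 35.4%, 35.6% and 37.2% of the family in the Flag-IPs against 40.8%, 41.0% and 41.2% in the HA-IPs. All HA-IPs were above all Flag-IPs, a difference of 4.94 points (exact permutation p = 0.1). Among the phosphofructokinases the PFKP share was 47.6% ± 0.70 (SD, n = 3) and 49.6% ± 0.28, and the PFKL share 31.3% ± 0.66 and 28.7% ± 0.33 (exact permutation p = 0.1 each), while the muscle subunit PFKM held 21.1% ± 0.37 and 21.7% ± 0.52 with overlapping groups (exact permutation p = 0.2). The hexokinase, aldolase, lactate dehydrogenase and 6-phosphofructo-2-kinase families overlapped between the groups for every isozyme. HK2 differed by -0.05 points, LDHA by 0.55 points and PFKFB3 by -0.48 points (exact permutation p = 0.9, 0.4 and 0.5).

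**Figure D4:**
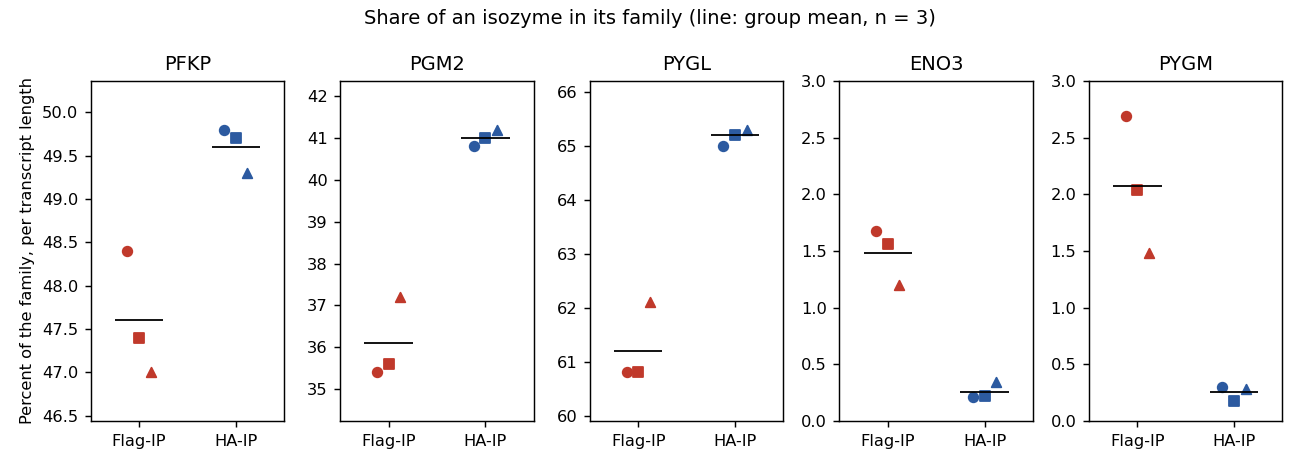
Share of PFKP, PGM2, PYGL, ENO3 and PYGM in its isozyme family, in percent of the family's normalized counts per kilobase of canonical transcript, with one point per library and a line at the group mean (n = 3). Flag-IPs are red and HA-IPs blue, circles, squares and triangles are replicates 1, 2 and 3, and each panel has its own axis. PFKP, PGM2 and PYGL lie higher and ENO3 and PYGM lower in all 3 HA-IPs.

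Summed over a branch, the glycolytic mRNAs gave 427345 to 444966 normalized counts in the Flag-IPs and 459778 to 474000 in the HA-IPs, a sum 7.28% higher in the HA-IPs that is carried mostly by ENO1 and PKM. The pentose phosphate sum ran from 24002 to 24523 and from 26851 to 27518, 12.3% higher. The glycogen sum, which includes PGM2, ran from 17414 to 17803 and from 18817 to 19371, 8.58% higher. On this scale the groups overlapped in none of the 3 branches, but the sums depend on how the libraries were scaled. As a percent of each library's total, the glycolytic sum was 1.44% ± 0.047 (SD, n = 3) in the Flag-IPs and 1.49% ± 0.023 in the HA-IPs with overlapping groups, the pentose phosphate sum 0.0798% ± 0.00035 and 0.0865% ± 0.00081, and the glycogen sum 0.0583% ± 0.00079 and 0.061% ± 0.0012, the last 2 without overlap. These sums are given as values with no test.

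Fold changes across the list went with transcript length. Over the 30 genes other than ENO3 and PYGM, Pearson's r between the log2 fold change and the log2 length of the canonical transcript was 0.511, a description across genes that share 6 libraries. The 10 transcripts under 2000 bases had a median log2 fold change of -0.06 with 1 HA-side call, ENO1, and the 20 longer ones had 0.15 with 8. The same lean was present in the whole table, with medians of -0.07 and 0.07 for the 905 shorter and 5047 longer genes that averaged 1000 or more, and r = 0.259 over those 5952. After trends with length and GC content were removed from each library, r over the 30 genes was 0.155, the medians were 0.04 and 0.13, and 13 listed genes passed on the HA side and 2 (ENO3 and PYGM) on the Flag side. PFKM (adjusted p = 0.046, limma), PKM (0.015), LDHB (0.014) and TALDO1 (0.0089) joined the 9, each higher in the HA-IPs, and TPI1 was no longer called.

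**Figure D5:**
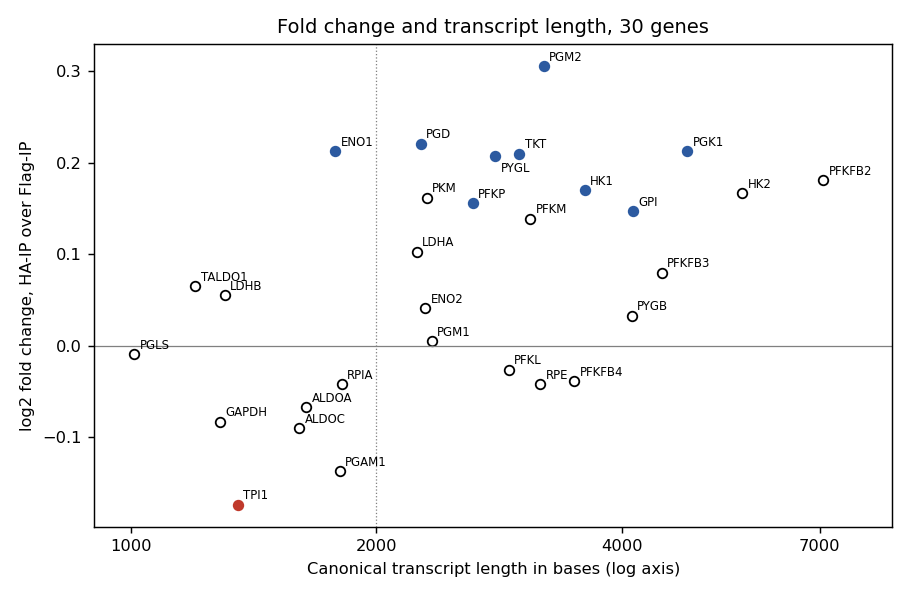
log2 fold change (HA-IP over Flag-IP, limma) against the length of the canonical transcript in bases on a log axis for 30 genes, with filled blue points called higher in the HA-IPs, the filled red point higher in the Flag-IPs and open points not called. The dotted line stands at 2000 bases, where the median goes from -0.06 on the left to 0.15 on the right.

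Promoter windows of PGM2, the largest HA-side difference, and ENO3, the largest Flag-side difference with an entry, are printed from the RefSeq promoter sequences of GRCh38.p14. Each holds 250 bases before and 50 after the start of the canonical transcript, and capitals mark ACGTG on either strand, the core shared by the hypoxia response element and the E-box CACGTG, through which HIF1 and MYC are known to act on glycolytic genes. The PGM2 window is chr4:37826436-37826735 on the plus strand and the ENO3 window is chr17:4950869-4951168 on the plus strand.
PGM2: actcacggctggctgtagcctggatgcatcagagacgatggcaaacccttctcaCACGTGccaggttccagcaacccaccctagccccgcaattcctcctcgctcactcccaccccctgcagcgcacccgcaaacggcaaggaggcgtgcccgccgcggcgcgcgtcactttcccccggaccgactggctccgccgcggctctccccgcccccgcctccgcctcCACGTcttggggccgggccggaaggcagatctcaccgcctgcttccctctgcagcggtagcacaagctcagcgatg
ENO3: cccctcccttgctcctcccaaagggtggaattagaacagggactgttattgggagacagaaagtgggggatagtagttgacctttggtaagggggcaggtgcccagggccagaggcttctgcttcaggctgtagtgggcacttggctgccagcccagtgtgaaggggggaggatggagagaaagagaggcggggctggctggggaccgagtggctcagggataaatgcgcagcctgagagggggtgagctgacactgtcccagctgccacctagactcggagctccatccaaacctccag
The PGM2 window held 3 matches to ACGTG on both strands, of which 2 overlap in 1 CACGTG, and the ENO3 window held 0. Windows matched for 30 of the 32 genes, all but PFKFB2 and PYGM, with 1 window taken per gene, nearest its canonical start. The 35116 windows set beside them were not cut to 1 per gene or to expressed genes. The shares are thus not like for like, and enrichment was not tested. ACGTG was in 11 of the 30 and in 21.4% of all 35116 promoter windows, and CACGTG, which contains it, was in 5 of the 30 and in 7.3% of all. Of the 9 genes higher in the HA-IPs 4 held ACGTG (GPI, PGK1, PGD and PGM2), and neither TPI1 nor ENO3 did. The GC-box letters GGGCGG, searched on both strands, were in 26 of the 30 windows and in 45.0% of all, TATAAA was in 1, that of LDHB, and in 11.5% of all, and the MEF2 motif of muscle promoters was in 1, again LDHB, and in 3.0% of all.

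Other genes of sugar metabolism moved in both directions. Of 92 further genes for transport, glycogen, gluconeogenesis, pyruvate entry, the glycerol and malate shuttles and the HIF and MYC regulators, 77 were in the table, 6 were called on the HA side (7.79%) and 4 on the Flag side (5.19%), near the 5.79% and 7.10% of all genes, with a median log2 fold change of 0.02. Among them were the phosphorylase kinase subunits PHKB at 0.22 (SE 0.053, adjusted p = 0.020, limma) and PHKA2 at 0.22 (SE 0.064, adjusted p = 0.045), parts of the enzyme that switches glycogen phosphorylase on. The lactate transporter SLC16A1 had a log2 fold change of 0.19 (SE 0.047, adjusted p = 0.022), and the mitochondrial enzymes PCK2 and GPD2 had 0.24 (SE 0.064, adjusted p = 0.034) and 0.22 (SE 0.051, adjusted p = 0.016).

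On the Flag side, PDK2, a kinase that shuts pyruvate dehydrogenase, had 1330, 1244 and 1137 normalized counts in the Flag-IPs against 802, 872 and 777 in the HA-IPs (log2 fold change -0.60, SE 0.075, adjusted p = 0.00085, limma). MPC2 of the mitochondrial pyruvate carrier (-0.49, SE 0.12, adjusted p = 0.024) and PCK1 (-1.88, SE 0.43, adjusted p = 0.017), at 3.96 to 39.3 normalized counts per library, were also called. PDK2, MPC2 and PCK1 had no overlap between the groups. The glucose transporter SLC2A1, HIF1A and MYC were not called, at -0.05 (SE 0.051), -0.02 (SE 0.050) and 0.03 (SE 0.045).

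Some levels are uncertain because other genes hold the same letters. In 100-base windows of the canonical transcript, 89.16% of ALDOA and 66.36% of LDHB recur in overlapping gene models of the same strand, 26.91% of RPE in KANSL1L or RPEL1, 19.31% of GAPDH in a noncoding RNA of the opposite strand and 15.62% of PGLS in PGLS-DT. Of the 9 HA-side genes 6 shared no window at all, and GPI (8.57%), PFKP (0.87%) and PYGL (0.22%) shared few. ENO3 and PYGM shared none, and TPI1 shared 9.03% with the pseudogene TPI1P1. Of pseudogenes named after a listed gene only TPI1P2 was in the table, with a value of -0.15 on the log2 scale (adjusted p = 0.85, limma).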

How the data were processed

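Poly(A) libraries of 2x150 bp reads from 3 Flag-IPs and 3 HA-IPs were grouped by the labels. The authors trimmed the reads with Trimmomatic 0.36, aligned them to GRCh38 with STAR 2.5.2b, counted them per gene with featureCounts of Subread 1.5.2, left out genes with few reads and scaled the libraries with DESeq2. The deposited signal per gene and library is thus a read count divided by a size factor, called normalized count here. All values came out as whole reads (100%, within 0.01 read) once the scaling was undone. The deposited table also holds the authors' log2 fold changes and adjusted p-values, which were not used, and 0 columns of other samples.

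Differences were tested with limma 3.58.1 (R 4.3.3) on log2(normalized count + 1) with a trend of the variance, two-sided, with Benjamini-Hochberg adjustment over 16834 genes. Tried as alternatives were edgeR 4.0.16 and DESeq2 1.42.0 on the recovered reads, pseudocounts of 0.1 and 10, a minimum mean of 50, other scalings, a replicate block, each library left out, and removal of trends with GC content and length (splines of 5 degrees of freedom per library, 16683 genes). The fits were tested on simulated data of 16834 genes, with 100 changed by a log2 fold of 0.25 and 100 changed by 1. Limma recovered 14 of the first and all 100 of the second, with 6 false calls. At 0.25 edgeR recovered 15 and DESeq2 37, with 8 and 18 false calls. The simulation changed far fewer genes than the 2171 called here, so recovery in the real data may differ. A gene that was not called is therefore not shown to be unchanged. Gene positions, lengths and coding sequences came from GENCODE 44 on GRCh38, the build the authors' notes name, matching 99.1% of identifiers. Isozyme shares were compared with exact permutation tests. No 2 replicates were alike within sampling noise. Named in full were the genes past the threshold, the muscle isoforms beside their paralogs and the most abundant gene of each step. The listed genes, the other pathway genes and the marker lists were chosen with earlier results of these data known. The 2 lists of 6 red blood cell and 6 liver genes had 0 genes in the table, and of 7 neuron genes 6 were in it and none was called. Results for some of the other pathway genes are not reported here.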

Additional observations from a re-analysis of the deposited data

How the results depend on the processing

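The count of listed genes higher in the HA-IPs was 9 as reported, 3 under quantile normalization, 5 with each library scaled to the same total, 0 by limma without the variance trend (12 with an unadjusted p under 0.05) and between 1 and 11 with a library left out, and it was from 7 to 13 under all other settings. The count higher in the Flag-IPs was between 2 and 4 throughout. Over all genes 975 were called on the HA side and 1196 on the Flag side, but 471 and 1576 at the same total and 6 and 182 (188 in all) without the trend, and the total ran from 620 without Flag-IP replicate 2, 780, 900 and 1216 without HA-IP replicates 1, 2 and 3, to 3059 without Flag-IP replicate 3. Members not called could change sign. Under quantile normalization ALDOC was at 0.024, PKM -0.0275, LDHB -0.0795, PFKFB4 0.087, PGLS 0.038, PGM1 -0.0205 and PYGB -0.00979 on the log2 scale. At the same total ENO2 was at -0.012, PGM1 -0.048 and PYGB -0.020. With GC and length trends removed, with or without the replicate block, ALDOA was at 0.023, GAPDH 0.053, PGLS 0.088 and RPIA 0.0205. With a library left out PFKL ran from -0.053 to 0.0012, PFKFB4 from -0.25 to 0.094, PGLS from -0.17 to 0.14, RPE from -0.12 to 0.054 and PGM1 from -0.010 to 0.025. The shares of HK2, ALDOC and PFKFB4 likewise ran, in percentage points, from -0.477 to 0.399, -0.0692 to 0.0137 and -1.23 to 0.041. ENO3, PYGM and PGM2 kept their sign in every fit, ENO3 and PYGM their call as well, and PGM2 lost its call only without the variance trend (adjusted p = 0.070). The cause of these changes was not tested.

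Replicate numbers did not pair the libraries: deviations from the group mean correlated at r = -0.16, 0.031 and -0.31 for equal numbers over 13141 genes, and no label ties them. The replicate block called 8 listed genes on the HA side and 2 on the Flag side, with 752 and 910 over all genes.

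Depth limits PYGM, PFKFB4 and ALDOC most, with the fewest reads. Among the 25 listed genes with a mean of at least 1000, the 95% interval reached 0.095 to 0.15 on the log2 scale to either side. A difference beyond it could still miss the threshold, as those of PKM (0.162) and HK2 (0.167) did.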
